A study of Mus musculus with 6 samples.

Results

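Motile cilium genes were examined in whole ovaries of wild-type and Selenbp1 knockout mice. The set comprised 35 genes chosen for their known part in building, moving or controlling motile cilia, and all 35 had at least 1 probe, 46 probes in all out of 39429 on the array. The samples were 6 ovary RNAs from female C57BL/6J mice aged 20 weeks, 3 wild type and 3 lacking SeBP1 (selenium-binding protein 1, gene Selenbp1), each measured on its own single-colour array. The part of the gene that was removed and the way the line was made are not stated in the labels. The replicate numbers are those of the sample descriptions, and the titles are W2, W3 and W5 for the wild types and KO1, KO2 and KO4 for the knockouts, in that order, so a number shared by the genotypes ties no samples together. The labels do not say whether each array stands for a separate animal, so a p-value speaks of the scatter among these 6 arrays, which may be technical. Below, an ovary means the RNA sample on 1 array. In whole ovaries, fewer cells of a type and less RNA per cell cannot be told apart.

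Motile cilia are hair-like projections that beat to move fluid or cells. Their core, the axoneme, is a ring of microtubule doublets around a central pair. Rows of dynein motors on the doublets make them slide, and radial spokes and the central pair control the beat. In the female reproductive tract they are carried by multiciliated cells of the oviduct, which lies against the ovary, and the ciliated tubules of the rete ovarii are a further source. Their genes are switched on by the forkhead factor Foxj1 together with the RFX factors, which bind a promoter element called the X-box. Most other cells, granulosa cells included, carry a single primary cilium, which lacks the motor apparatus but needs the same intraflagellar transport.

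An X-box half-site was common in the promoters of these genes. Of the 35 genes, 31 had a promoter window in the RefSeq table (build GRCm38.p6), which runs from 250 bases before to 50 bases after each start site. Spag6 was matched through the accession of its probe, which RefSeq lists as Spag6l, and Foxj1, Rsph1, Rsph4a and Tppp3 were not matched. The letters GTTGCC, an X-box half-site, or their reverse complement GGCAAC were present in 20 of the 31 (64.5%), against 14.1% of all 27025 genes in the table (12.5% of all windows). A further 2 motifs were searched on both strands. A pattern with both X-box arms, GTNNCC and GGNNAC with any 2 bases between them, can contain a half-site. It was present in 7 of 31 (22.6%) against 2.16% of all genes. A site with other letters or spacing is not counted by this pattern, so its share is not that of all full X-boxes. The forkhead core TGTTTAC was present in 2 of 31 (6.45%) against 4.05%. A match is a run of letters and does not show that a factor binds there.

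To show the element in genes that behaved differently across the ovaries, the 250 bases before the start site are given for Ccdc153 (chr9:44240427-44240676, plus strand), Tekt1 (chr11:72361883-72362132, minus strand), Lrrc23 (chr6:124779728-124779977, minus strand), Dynlrb2 (chr8:116504765-116505014, plus strand), Ift57 (chr16:49699044-49699293, plus strand) and Mlf1 (chr3:67373847-67374096, plus strand). They read 5′ to 3′ on the strand of the gene, and capitals mark the half-site in either orientation.
Ccdc153: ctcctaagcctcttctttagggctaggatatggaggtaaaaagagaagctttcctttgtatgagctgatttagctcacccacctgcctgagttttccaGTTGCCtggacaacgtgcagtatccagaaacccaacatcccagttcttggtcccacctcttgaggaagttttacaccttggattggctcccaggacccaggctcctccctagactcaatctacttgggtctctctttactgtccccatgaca
Tekt1: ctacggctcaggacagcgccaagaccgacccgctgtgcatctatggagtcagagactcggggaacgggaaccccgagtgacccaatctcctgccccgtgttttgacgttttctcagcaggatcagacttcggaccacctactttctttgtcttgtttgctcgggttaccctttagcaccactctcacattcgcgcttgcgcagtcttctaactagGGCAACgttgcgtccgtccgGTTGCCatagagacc
Lrrc23: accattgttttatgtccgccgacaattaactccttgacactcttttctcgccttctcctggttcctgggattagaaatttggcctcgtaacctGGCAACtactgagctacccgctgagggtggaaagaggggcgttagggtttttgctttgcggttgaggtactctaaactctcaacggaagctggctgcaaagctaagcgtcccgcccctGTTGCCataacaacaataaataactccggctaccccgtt
Dynlrb2: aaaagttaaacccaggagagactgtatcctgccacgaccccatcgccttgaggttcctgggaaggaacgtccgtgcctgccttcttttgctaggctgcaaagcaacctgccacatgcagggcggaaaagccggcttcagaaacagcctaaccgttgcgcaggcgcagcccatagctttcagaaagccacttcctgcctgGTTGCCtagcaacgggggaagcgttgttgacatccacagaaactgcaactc
Ift57: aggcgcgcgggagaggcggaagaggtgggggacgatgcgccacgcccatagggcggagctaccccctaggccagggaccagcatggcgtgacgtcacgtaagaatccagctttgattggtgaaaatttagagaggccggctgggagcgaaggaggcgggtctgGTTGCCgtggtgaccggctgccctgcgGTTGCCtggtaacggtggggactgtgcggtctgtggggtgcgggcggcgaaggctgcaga
Mlf1: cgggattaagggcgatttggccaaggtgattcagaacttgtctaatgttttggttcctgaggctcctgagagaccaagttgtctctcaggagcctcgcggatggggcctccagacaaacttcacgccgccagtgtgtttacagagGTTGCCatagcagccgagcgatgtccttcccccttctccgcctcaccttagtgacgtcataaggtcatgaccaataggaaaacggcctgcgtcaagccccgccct
These 6 were picked after their values had been seen. They were taken from the genes that carry the half-site. The first 4 were highest in wild type replicate 2, and Ift57 and Mlf1 were highest in other ovaries. Tekt1, Lrrc23 and Ift57 carry 2 each. Over the members there were 26 distinct matches, of which the 2 of Tekt2 lie in each of its overlapping windows, and they began between 157 bases before and 34 bases after the start site.

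**Figure D1:**
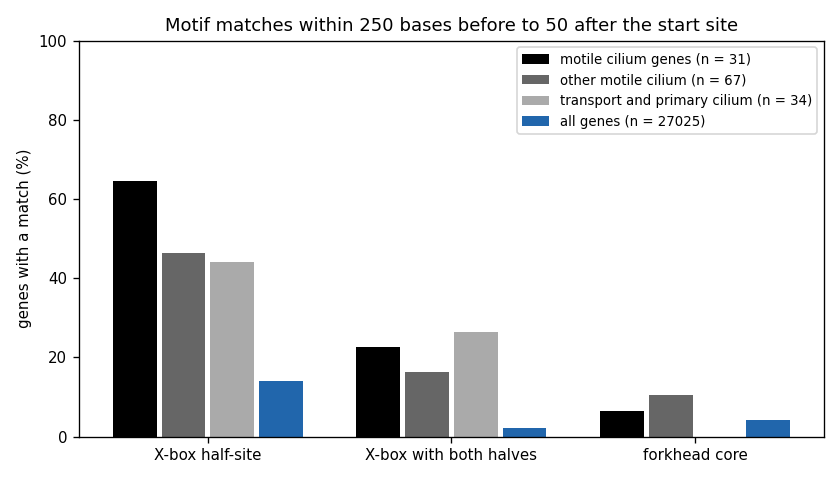
Share of genes (%, bars starting at 0) with a match to each of 3 motifs on either strand within the promoter window, for the motile cilium genes, the 2 other cilium gene lists and all genes in the RefSeq table. The half-site is found in 64.5% of the motile cilium genes and 14.1% of all genes, and the forkhead core in 6.45% and 4.05%.

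Markers of the labelled tissue were present. All 7 granulosa markers (among them Foxl2, Fshr and Inha) and all 7 oocyte markers (among them Zp3 and Gdf9) were well above background, by the scanner software's own flag, on all 6 arrays. Between 61.6% and 69.3% of spots had that flag, with the fewest in wild type replicate 3. Signal is given as log2 intensity with the array's own 75th percentile set to 0, and values are listed in the order of replicates 1, 2 and 3. The lowest signal flagged as well above background lay between -6.56 and -5.69 on this scale, and values near or under it have no useful order. Selenbp1 was at 2.68, 2.52 and 2.59 for the wild types, then -0.11, 0.025 and -0.37 for the knockouts, and it was the only gene called at an adjusted p under 0.05 (limma with Benjamini-Hochberg adjustment over 24415 probes, adjusted p = 0.0104). With slide as a fixed block its log2 difference of -2.75 was -2.74, but the adjusted p was 0.0792 (limma), so the call was lost. It was also lost with the replicate block, on the shared slide alone and with no filter on background, and when wild type replicate 1 or 2 or knockout replicate 1 or 3 was left out, with differences between -2.79 and -2.64. The arrays lay on 2 slides, with wild type replicates 1 and 2 on the first and wild type replicate 3 and the knockouts on the second, so a comparison within a slide has 1 wild type against the 3 knockouts. Knockout replicate 2 stood apart in theca and luteal markers. The median of these 6, each relative to its own mean, was 0.13, 0.16 and 0.91 for the wild types, then 0.57, -1.35 and 0.18 for the knockouts, with Hsd3b1 missing from wild type replicates 1 and 2, where its spots were outliers. The granulosa median was 0.10, 0.12 and -0.46 for the wild types, then -0.19, 0.0022 and 0.25 for the knockouts.

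No motile cilium gene passed the test between the genotypes. Of the 35 genes, 24 were well above background throughout the wild types or throughout the knockouts and so were tested, and 0 were called in either direction, where 0.0041% of all tested probes were called. At an unadjusted p under 0.05 the count was again 0 of 24, against 3.95% of all tested probes, and the smallest adjusted p was 1.00 (limma). In none of the 24 did the genotypes separate without overlap, against 8.58% of the tested probes (4.64% lower in every knockout and 3.94% higher). The same held for the brightest probe of each of the 35, against 5.47% (lower) and 3.06% (higher) of all 39184 probes with complete values. Over all 35 genes, 27 had a lower mean in the knockout, with a median log2 difference of -0.19. Over all probes 62.1% had a lower mean, with a median difference of -0.067. Leaving out wild type replicate 2, the count was 17 of 35 and the median 0.027, and with slide as a block it was 13 of 35 and 0.090. Leaving out knockout replicate 2, it was 29 of 35 and -0.41. These counts take in the genes that were not tested, whose signs can rest on background. Over the 24 tested genes alone, on all 6 arrays, the median difference was -0.16, against -0.017 over all tested probes.

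The levels of these genes were highest in wild type replicate 2. The list median, each gene taken relative to its own mean over the arrays, was -0.050, 0.39 and -0.18 for the wild types, then -0.27, 0.12 and -0.25 for the knockouts. The highest was wild type replicate 2 and the next was knockout replicate 2, with the other 4 below 0. That wild type was the top array for 17 of 35 genes (48.6%), where it was the top array for 16.0% of all probes. Knockout replicate 2 was the top array for 7 of 35 (20.0%), near its 18.9% of all probes. Wild type replicate 2 lay more than 2-fold above the mean of the other wild types in 14 of 35 genes (40.0%). Over all probes the share was 3.91%. Knockout replicate 2 lay that far above the mean of the other knockouts in 7 of 35 genes (20.0%), against 3.74% of all probes. In these counts arrays at background were taken at their measured signal. The replicates numbered 2 of both genotypes were together the top 2 arrays for 16 genes (45.7%), against 10.5% of all probes. This pattern was seen first and counted afterwards, and the counts describe these arrays without testing a difference between groups. Wild type replicate 1, on the same slide as replicate 2, was lower by a median of 0.55 over the 35 genes and by 0.078 over all probes.

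**Figure D2:**
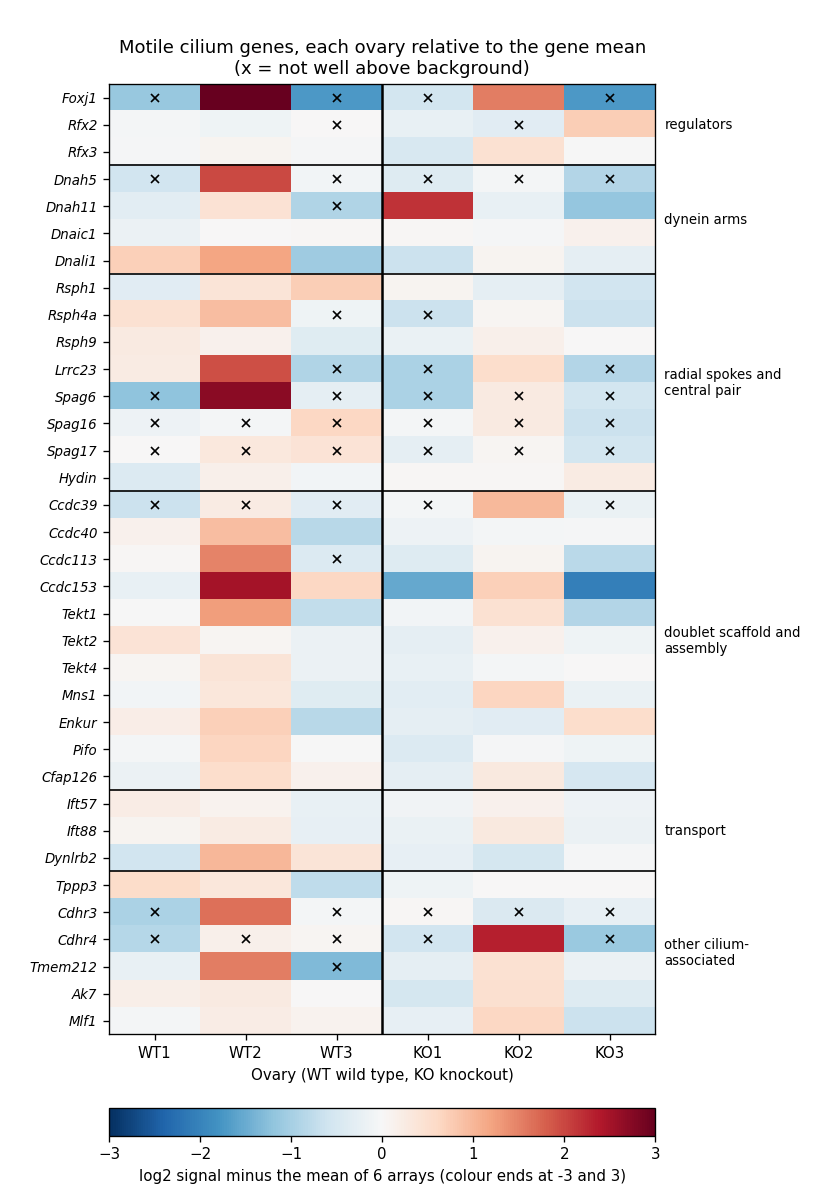
Each row is a motile cilium gene and each column an ovary (WT wild type, KO knockout, numbered by replicate). Colour is the log2 signal minus the mean of the gene over the 6 arrays, red for higher and blue for lower, and a cross marks a signal not well above background. The red cells gather in WT2, the top array for 17 of 35 genes, and more thinly in KO2, while Ift57, Dnaic1 and Rsph9 stay pale across the row.

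Foxj1, the forkhead factor that switches on motile cilium genes, was detected in only 2 of the 6 ovaries, 1 of each genotype. Its processed signal was 16.2, 383 and 8.01 intensity units for the wild types, then 22.8, 88 and 10.2 for the knockouts. Both replicates numbered 2 were well above background and the other 4 were not. On the log2 scale the values were -6.76, -2.04 and -7.35 for the wild types, then -6.17, -4.09 and -7.35 for the knockouts, and no fold between genotypes is given because most arrays hold only a bound. Its probe lies at chr11:116192214-116192273 (build mm9, from the files). Of the 2 RFX genes, whose factors act in cells with primary cilia as well, Rfx3 was at -5.13, -5.02 and -5.13 for the wild types, then -5.57, -4.63 and -5.11 for the knockouts, a difference of -0.010 ± 0.23 (SE), and varied by less than 1 log2 unit over the 6 arrays. Its other 2 probes differed by 0.11 and -0.067. Rfx2 was near background, with values between -6.06 and -4.96 and a flag above background on 2 arrays of each genotype.

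The dynein arm genes, which encode the motors and their anchoring chains, did not share 1 pattern. Dnah5, a heavy chain of the outer arm, was above background only in wild type replicate 2, at -5.94 against -8.80 to -7.98 elsewhere. Dnali1, a light intermediate chain of the inner arm, was at -3.62, -3.15 and -5.42 for the wild types, then -4.99, -4.26 and -4.63 for the knockouts. Both wild types of the first slide were above every other array, and the third was the lowest of all 6. The genotype difference was -0.56 ± 0.58 (SE), and -0.11 without wild type replicate 2. Dnah11, another outer arm heavy chain, was highest in knockout replicate 1 at -3.06, with -5.55, -4.79 and -6.14 in the wild types and -5.46 and -6.38 in the other knockouts, and it was at background in wild type replicate 3. Its difference was 0.52 ± 0.85 (SE), and without knockout replicate 1 it was -0.43. Dnaic1, an intermediate chain of the outer arm, kept within 0.30 log2 units over the 6 arrays, at -2.91, -2.74 and -2.71 for the wild types, then -2.70, -2.79 and -2.61 for the knockouts, with a difference of 0.088 ± 0.11 (SE) (95% interval -0.18 to 0.35).

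Among genes of the radial spokes and the central pair, those found only in some ovaries again peaked in wild type replicate 2. Spag6, a central pair protein, was above background there alone, at -4.64 against -8.56 to -7.08 elsewhere. Its probe lies at chr16:16753406-16753465 (mm9). Lrrc23, a radial spoke protein, was at -5.69, -4.01 and -6.84 for the wild types, then -6.89, -5.41 and -6.83 for the knockouts. It was above background in wild type replicates 1 and 2 and knockout replicate 2, so both genotypes had ovaries with and without it. Rsph4a, a spoke head protein, was highest in wild type replicate 2 at -4.71 and lay between -6.28 and -5.17 on the others, with 4 of 6 arrays above background.

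Rsph1, also of the spoke head, had values of -2.61, -1.87 and -1.51 for the wild types, then -2.18, -2.53 and -2.84 for the knockouts, highest in wild type replicate 3. Its difference was -0.52 ± 0.31 (SE), while its second probe gave 0.33 and was highest in knockout replicate 3, so the probes disagree in direction. Rsph9, a further spoke head protein, was at 0.16, 0.034 and -0.46 for the wild types, then -0.31, 0.039 and -0.10 for the knockouts, and the genotypes interleaved with a difference of -0.034 ± 0.19 (SE). Hydin, which is needed for the central pair and for normal beating, was at -4.66, -4.10 and -4.33 for the wild types, then -4.21, -4.21 and -4.0 for the knockouts, a difference of 0.22 ± 0.16 (SE), and without wild type replicate 2 the difference was 0.35. Its second probe stayed at background in all 6 ovaries. Spag16 and Spag17, both of the central pair, stayed at background in all 6 ovaries.

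Among the genes of the doublet scaffold and its assembly, Ccdc153, a component of the nexin-dynein regulatory complex that links the doublets, was at -3.91, -1.21 and -3.08 for the wild types, then -5.24, -2.99 and -5.76 for the knockouts. It had the largest range of the tested members. The second wild type stood above all other arrays, knockout replicate 2 and wild type replicate 3 were alike, and knockout replicates 1 and 3 were the lowest. The means were -2.73 ± 1.38 for the wild types and -4.67 ± 1.47 for the knockouts (SD, n = 3 each), and the difference of -1.93 ± 0.93 (SE) had a 95% interval of -4.17 to 0.31 (limma, unadjusted p = 0.0798, adjusted p = 1.00). Without wild type replicate 2 it was -1.17. Of the genes tested, this had the smallest p. Its probe lies at chr9:44054861-44054920 (mm9).

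Tekt1, a tektin that runs inside the doublets, was at -2.41, -1.13 and -3.13 for the wild types, then -2.46, -1.92 and -3.26 for the knockouts, 3.11-fold higher in wild type replicate 2 than in the mean of the other wild types. A second Tekt1 probe gave the same order of arrays within each genotype, at -2.85, -1.50 and -3.31 for the wild types, then -2.74, -2.31 and -3.52 for the knockouts. The genotype difference was -0.32 ± 0.56 (SE) and turned to 0.22 without wild type replicate 2. Ccdc113, a regulator of ciliary assembly and beating, was at -4.94, -3.48 and -5.38 for the wild types, then -5.35, -4.89 and -5.78 for the knockouts, at background in wild type replicate 3, with a difference of -0.74 ± 0.51 (SE), and leaving out wild type replicate 2 gave -0.18. Ccdc40, which with Ccdc39 sets the repeat length along the doublet, was at -4.15, -3.34 and -5.11 for the wild types, then -4.43, -4.33 and -4.30 for the knockouts. Its difference was -0.15 ± 0.42 (SE), and 0.28 without that array. Ccdc39 was above background in knockout replicate 2 alone, at -5.35 against -6.96 to -6.08 elsewhere.

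The other scaffold genes were above background on all 6 arrays and varied less. Enkur, a doublet protein found in sperm and cilia, was at -4.04, -3.51 and -5.07 for the wild types, then -4.51, -4.56 and -3.69 for the knockouts, and knockout replicate 3 came next after wild type replicate 2. Mns1, another doublet protein, was at -0.14, 0.28 and -0.43 for the wild types, then -0.38, 0.57 and -0.27 for the knockouts, with both replicates numbered 2 on top. Cfap126, which encodes the basal body protein Flattop, was at 0.54, 1.24 and 0.86 for the wild types, then 0.45, 1.02 and 0.21 for the knockouts, and its second probe ranked wild type replicate 2 first and knockout replicate 3 last in the same way. Pifo, which acts in disassembly of the primary cilium, was at -3.95, -3.26 and -3.92 for the wild types, then -4.30, -3.92 and -4.03 for the knockouts, with wild type replicate 2 above the other 5. The tektin Tekt4 was at -2.75, -2.41 and -2.98 for the wild types, then -3.01, -2.86 and -2.79 for the knockouts. Its relative Tekt2 was at -3.85, -4.20 and -4.44 for the wild types, then -4.52, -4.13 and -4.39 for the knockouts, and each spanned at most 0.67 log2 units. The genotype differences of these 6 genes ran from -0.37 for Pifo to 0.072 for Mns1, with standard errors between 0.17 and 0.44.

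Of the 3 genes of transport, which primary cilia also need, Ift57 and Ift88 varied little. Ift57, a subunit of the transport complex that carries cargo to the tip, was at 0.89, 0.77 and 0.45 for the wild types, then 0.55, 0.80 and 0.52 for the knockouts, a difference of -0.081 ± 0.16 (SE) (95% interval -0.46 to 0.29). Ift88, of the same complex, was at 0.86, 1.01 and 0.53 for the wild types, then 0.58, 1.06 and 0.58 for the knockouts, a difference of -0.057 ± 0.19 (SE) (95% interval -0.52 to 0.41). The genotypes overlapped for both genes. Dynlrb2, a light chain of cytoplasmic dynein that is abundant in multiciliated cells, varied more, at -1.78, -0.21 and -0.82 for the wild types, then -1.44, -1.74 and -1.24 for the knockouts. The second wild type was the highest and wild type replicate 1 the lowest of all arrays, and the difference was -0.54 ± 0.39 (SE), and leaving out wild type replicate 2 gave -0.17.

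**Figure D3:**
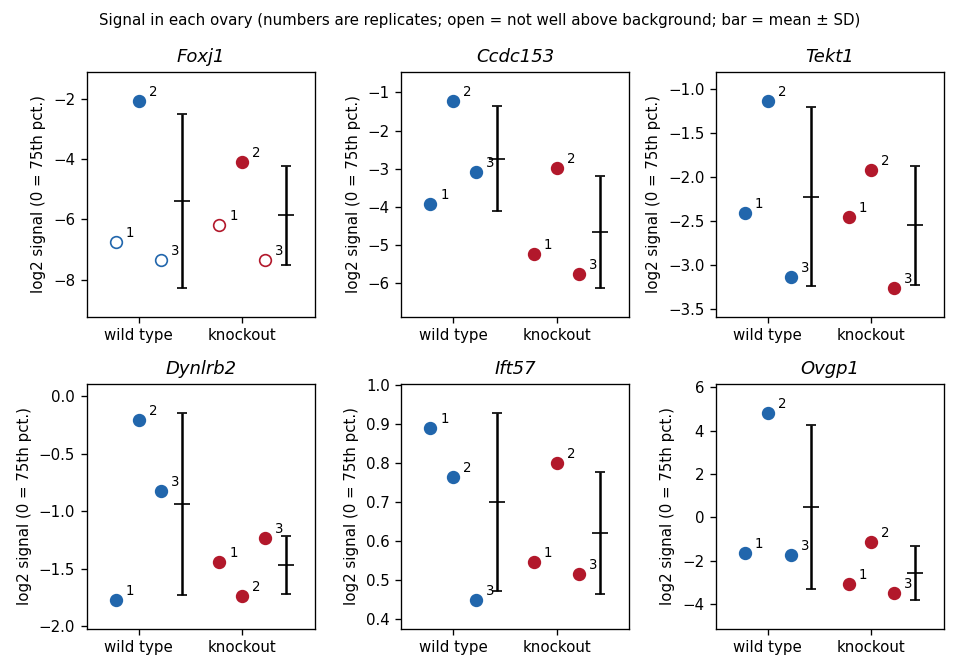
Log2 signal with the 75th percentile of each array at 0 (vertical axes differ in range) in each ovary for 5 motile cilium genes and the oviduct secretory gene Ovgp1. Points are numbered by replicate, open points are not well above background, and bars give the mean ± SD (n = 3). Wild type replicate 2 is the top point for every gene shown but Ift57, whose 6 values span 0.44 log2 units.

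Of the remaining genes, 4 passed the filter. Tppp3, a tubulin-binding protein found in multiciliated and some other cells, was at 0.039, -0.15 and -1.27 for the wild types, then -0.63, -0.50 and -0.50 for the knockouts, lowest in wild type replicate 3. Mlf1, a gene also known from blood cell disease, was at 1.20, 1.47 and 1.35 for the wild types, then 0.99, 1.86 and 0.60 for the knockouts, highest in knockout replicate 2. Ak7, an adenylate kinase of the axoneme, was at -3.40, -3.31 and -3.58 for the wild types, then -4.11, -3.11 and -3.98 for the knockouts, with knockout replicate 2 on top as well. Tmem212, a membrane protein seen in ciliated cells, was at -5.02, -3.27 and -6.14 for the wild types, then -5.07, -4.34 and -4.98 for the knockouts, highest in wild type replicate 2 and at background in wild type replicate 3. Its genotype difference was 0.012 ± 0.69 (SE) and was 0.78 when wild type replicate 2 was left out. The cadherin Cdhr3 was above background only in wild type replicate 2, at -5.86. The related Cdhr4 was above background only in knockout replicate 2 by its brighter probe, at -5.36, and only in wild type replicate 2 by its other probe, at -5.96.

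**Figure D4:**
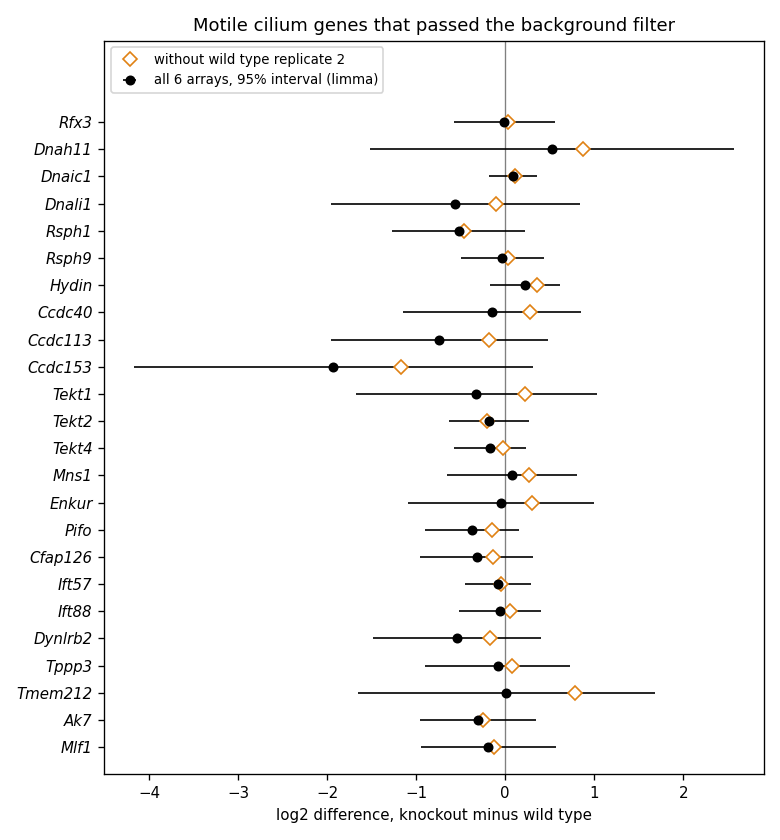
Log2 difference, knockout minus wild type, for the 24 motile cilium genes that were tested, with 95% intervals from limma over all 6 arrays (black) and the difference without wild type replicate 2 (orange diamonds). Every interval includes 0, and for Ccdc153 the difference goes from -1.93 to -1.17 when that array is left out.

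The number of genes detected was also highest in both replicates numbered 2, and lowest in wild type replicate 3, where the fewest spots were above background. Of the 35 genes, 27, 31 and 21 were well above background for the wild types, then 25, 29 and 26 for the knockouts. In the 11 genes that failed the filter, 2 were above background on no array, and 5 (Dnah5, Spag6, Cdhr3, Ccdc39 and Cdhr4) on 1 array only. For these 5, by the brightest probe, that array was a replicate numbered 2 of either genotype. Dnah5 and Cdhr3 lay close to the lowest flagged signal there, and the like share over all probes was not counted.

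A separate list of 79 motile cilium genes (dynein chains, assembly factors, Cfap and Drc proteins, and regulators of multiciliation), 76 with a probe, had the same 2 ovaries on top. Its list median was -0.035, 0.38 and -0.21 for the wild types, then -0.23, 0.17 and -0.26 for the knockouts, and wild type replicate 2 was the top array for 45 of 76 genes (59.2%). The largest excess there was in Cfap52, an axonemal protein, at -7.14, -3.26 and -7.67 for the wild types, then -8.29, -5.81 and -8.81 for the knockouts, above background in wild type replicate 2 alone. Drc1, of the nexin-dynein complex, was above background on every array, at -4.99, -3.22 and -5.04 for the wild types, then -5.20, -4.09 and -5.59 for the knockouts. Both genes were picked for this display after their values had been seen. Of the 45 genes of the list that were tested, 0 were called in either direction. At an unadjusted p under 0.05, 3 were lower (against 1.74% of all tested probes) and 0 higher (against 2.2%), by limma. The 3 were Kif9, a kinesin of the central pair, at -0.65, Cfap221 at -0.39 and the inner arm heavy chain Dnah7a at -0.39, with unadjusted p values of 0.0240, 0.0282 and 0.0421. The 3 higher genes with the smallest p were Trp73 at 0.17, Spef1 at 0.20 and Mcidas at 0.36. The genotypes separated without overlap in 6 of 76 genes as lower and 2 as higher, against 5.47% and 3.06% of all probes, which is no result about the list.

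Genes of intraflagellar transport and the primary cilium did not have wild type replicate 2 on top. The list of 40, with 38 tested, had a list median of 0.084, 0.027 and -0.14 for the wild types, then -0.10, 0.16 and -0.035 for the knockouts, a range narrower than for the motile genes. Wild type replicate 2 was the top array for 4 of 40 genes (10%), and in 0 of 40 was it more than 2-fold above the other wild types. The lists also differed in level. Without centring, the array medians lay between -1.01 and -0.64 here, and between -5.07 and -3.31 for the 35 members. On all 6 arrays, 38 of 40 genes here and 21 of 35 members were well above background. That 2-fold share was 1.01% of tested probes with complete values, against 3.91% of all probes. The part of level in this contrast was not tested. Knockout replicate 2 was the top array for 20 of 40 (50%), against 18.9% of all probes. No gene of the list was called. The higher genes with the smallest p were Ift46 at 0.31 (limma, unadjusted p = 0.0487, adjusted p = 1.00), Ift172 at 0.19 and Ttc8 at 0.13, and the lower ones Ift27 at -0.12, Arl3 at -0.12 and Ttc30b at -0.11.

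Markers of the oviduct's secretory cells, the neighbours of its ciliated cells, were also highest in wild type replicate 2. The median of 12 such markers was 0.050, 0.93 and -0.44 for the wild types, then -0.63, -0.11 and -0.23 for the knockouts, and wild type replicate 2 was the top array for 10 of 12. Of the 12, 10, 12 and 9 were above background for the wild types, then 9, 9 and 10 for the knockouts. Ovgp1, the oviduct-specific glycoprotein, was at -1.66, 4.83 and -1.72 for the wild types, then -3.09, -1.13 and -3.49 for the knockouts, 91.9-fold higher in wild type replicate 2 than in the mean of the other wild types. Ovgp1 was above background on all 6 arrays, and its next highest value was in knockout replicate 2. Pax8, a transcription factor of the secretory cells, was above background in wild type replicates 1 and 2 only, at -5.33 and -4.23, and was not above it in knockout replicate 2, at -7.97. Medians of 12 surface epithelium and mesothelium markers were 0.51, 0.065 and -0.075 for the wild types, then -0.60, 0.027 and 0.050 for the knockouts, highest in wild type replicate 1. Medians of the 7 oocyte markers were 0.38, 0.41 and -0.45 for the wild types, then -0.18, 0.32 and -0.43 for the knockouts, high in both replicates numbered 2 but also in wild type replicate 1. Theca and luteal markers, given above, were lowest in knockout replicate 2, the ovary with the second highest median of the motile cilium genes. The part of these cells in the values of the motile cilium genes was not tested.

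**Figure D5:**
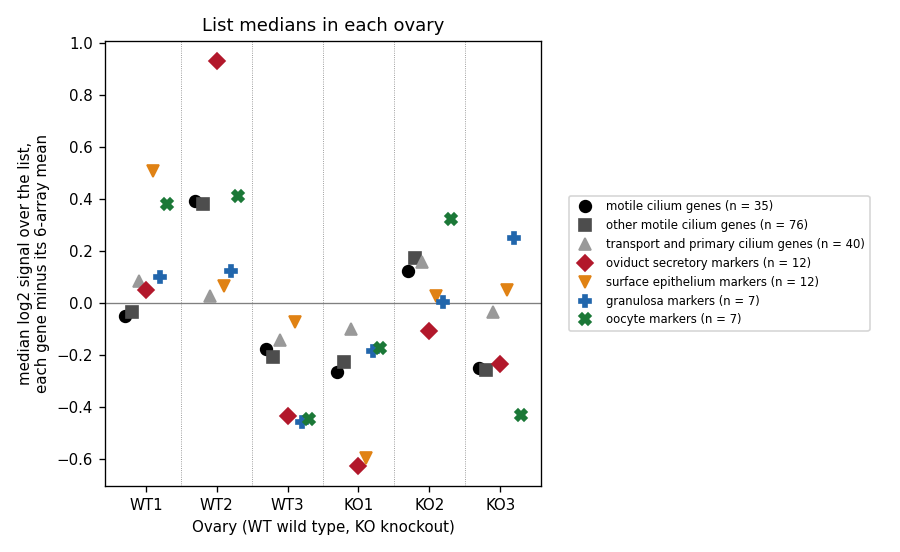
Median log2 signal of each gene list in each ovary, every gene taken relative to its mean over the 6 arrays, with the number of genes with a probe in brackets. WT2 has the highest medians of the motile cilium genes (0.39), the other motile cilium genes (0.38) and the oviduct secretory markers (0.93), whereas the transport and primary cilium genes stay between -0.14 and 0.16 on all arrays.

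Members with and without the half-site overlapped in their excess in wild type replicate 2. In the 20 members with a half-site the excess of wild type replicate 2 over the other wild types had a median of 0.55 log2 units, from -0.29 to 3.46. In the 11 without one it had a median of 0.74, from 0.068 to 2.31. Of these 11, Cfap126 and Rsph9 matched the pattern with both X-box arms, so the group is not free of X-box matches. Half-sites were present in 46.3% of 67 genes of the other motile list and in 44.1% of 34 genes of the transport and primary cilium list. The 2 lists differed in their pattern across the ovaries. Any tie between the motif and the pattern across the ovaries was not tested.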

How the data were processed

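Ovary RNA, 3 wild-type and 3 knockout samples, was read on single-colour Agilent mouse arrays. The deposited scanner files hold spot intensity from Agilent Feature Extraction 10.7.1.1 with background subtraction and detrending inside each array, per the file headers, and probe coordinates in mm9. Intensity in the deposited series table, with the same distribution in all 6 columns, served as an alternative. For its making, the sources used here name no step beyond that software.

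Outlier spots were left out and spots of a probe averaged. Values are log2 of the processed intensity minus the array's 75th percentile over spots that are not controls. Probes were found by gene name or an older symbol (46 probes), and the brightest probe stood for a gene. The probe named Gm9558 was left out because the files describe it as another gene. A probe was tested where a whole genotype had it well above background (24415 probes). Genotypes were compared with limma 3.58.1 in R 4.3.3 on all 6 arrays, two-sided, with Benjamini-Hochberg adjustment, after a check on simulated data. The simulated noise was independent between arrays and had no slide effect, so the check does not cover the slide layout of these arrays. Tables were made with pandas 2.3.3 and numpy 2.4.6 in Python 3.11.15, plots with matplotlib 3.10.9. Every member is named, with all values for those tested. From the 2 wider lists the 3 genes with the smallest p in each direction are named. The members and lists were chosen with earlier results of these data known. The small number of arrays limits precision.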

Additional observations from a re-analysis of the deposited data

How the results depend on the processing

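No member was called under any alternative run, and 12 of the 35 differences kept their sign in all of them. The count of probes called over the whole table, 1 in the analysis reported (Selenbp1), was 0 with no filter on background, with slide as a fixed block and for the 4 arrays of the shared slide, 6 with array weights, and 0 to 19 when each array was left out in turn, highest without wild type replicate 3. The median difference of the members, -0.19, was 0.090 with slide as a fixed block and for those 4 arrays, -0.53 with array weights, and -0.41 to 0.027 with single arrays left out. The replicate numbers did not pair the samples, with correlations of -0.33, 0.30 and -0.027 between same-numbered arrays, and the replicate block gave 0 probes called, 0 members called and a median of -0.19.

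Several uncalled differences changed sign, and the cause was not tested. With slide as a fixed block, and likewise on the shared slide alone, the values were Rfx3 at 0.032, Dnali1 at 0.80, Rsph9 at 0.34, Ccdc40 at 0.75, Ccdc113 at 0.038, Tekt1 at 0.59, Tekt2 at 0.090, Tekt4 at 0.090, Enkur at 0.81, Ift57 at 0.17, Ift88 at 0.21, Tppp3 at 0.72. With slide as a random block they were Rsph9 at 0.049, Ccdc40 at 0.048, Enkur at 0.14, Ift88 at 0.0029, Tppp3 at 0.095. Array weights gave Dnah11 at -0.31, Mns1 at -0.34, Tmem212 at -1.20. The deposited series table gave Rfx3 at 0.031, Tmem212 at -0.015, quantile normalization Rfx3 at 0.013, Tmem212 at -0.033, normexp Tmem212 at -0.23, median scaling Tmem212 at -0.00017, and the mean over a gene's probes Rfx3 at 0.0098. Over the arrays left out in turn the differences ran from -0.25 to 0.22 for Rfx3, -0.43 to 1.23 for Dnah11, -0.22 to 0.092 for Rsph9, -0.48 to 0.30 for Enkur, -0.22 to 0.049 for Ift88, -0.23 to 0.26 for Mns1, -0.65 to 0.78 for Tmem212, -0.78 to 0.22 for Tekt1, -0.54 to 0.085 for Mlf1, -0.21 to 0.014 for Ift57, -0.49 to 0.17 for Tppp3, -0.61 to 0.28 for Ccdc40. For the 11 members that failed the filter most values are bounds set by background.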

Other observations

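Probes beside the members gave little signal. The probe named Gm9558, an older synonym of Hydin that the files describe as similar to a ribosomal protein gene, stayed at background in all 6 ovaries. RefSeq lists the accession of BC061194 as the Spag6 gene of chromosome 2, apart from the Spag6 of the files on chromosome 16. Of its 2 probes, 1 was above background on no array and the other on 1 array, knockout replicate 3, at -5.76.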
